A study of Mus musculus with 42 samples.

Results

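Osteopontin, the secreted glycoprotein encoded by Spp1, and 7 genes linked to lipid handling or alternative activation of macrophages were followed in bulk RNA-seq profiles of MC38 tumors. The 8 genes, Spp1, Trem2, Apoe, Gpnmb, Mrc1, Fabp5, Cd36 and Lgals3, were chosen by name from the 26811 gene rows of the count table, and each row was found by its Ensembl identifier and symbol. The table held 42 tumors, each listed as a sample of its own. All tumors were grown from MC38, a mouse colon carcinoma line, under the skin of female F1 mice from a cross of CC075/UncJ and C57BL/6J, aged 8 to 12 weeks and injected with these cells.

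Blocking antibodies or matched isotype controls were given repeatedly from engraftment on, up to a tumor size of 75 to 110 mm3. Each mouse then had 1 injection of 200 μg aPD1 or control antibody, and its tumor was taken after 48 h. The isotype group (n = 5) had no blocking antibody and no aPD1. The aPD1 group (n = 6) had aPD1 with isotype controls in place of blockade, aPD1 + aGMCSF (n = 9) had 100 μg of an antibody to GM-CSF, aPD1 + aIL2RB (n = 11) had 200 μg of an antibody to the β chain of the IL-2 receptor, and aPD1 + aGMCSF + aIL2RB (n = 11) had both. RNA came from whole tumors, so fewer cells of a type cannot be told apart from less RNA per cell. A division of the tumors along their replicate numbers, which the labels do not name, had been seen in the expression values of these same tumors, so a p-value for a difference between the sets is not independent of how they were drawn. The first set held isotype 1 and 2, aPD1 1 to 3, aPD1 + aGMCSF 1 to 5 and 1 to 6 of both groups given aIL2RB (22 tumors), and the second set held the other 20.

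Macrophages that take up lipid from dying cells switch on a shared program in fat, artery wall, injured tissue and tumors. Its genes encode lipid receptors and carriers, lysosomal proteins and secreted factors that act on neighboring cells. In tumors, macrophages rich in Spp1 have been set against those rich in Cxcl9, a chemokine induced by interferon-γ that attracts T cells. Spp1 is not particular to macrophages, since tumor and stromal cells can secrete it too, and GM-CSF and IL-2 family cytokines act on myeloid cells and on T and NK cells, respectively.

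By role, the genes fell into secreted proteins, surface receptors and membrane proteins, and a carrier inside the cell. Spp1 encodes a ligand of integrins and CD44 (ENSMUSG00000029304) and lies at chr5:104435118-104441050 of GRCm38. Apoe (ENSMUSG00000002985, chr7:19696109-19699188) encodes an apolipoprotein that carries cholesterol outside cells, and Lgals3 (ENSMUSG00000050335, chr14:47367751-47386160) encodes galectin-3, which binds β-galactosides. Trem2 (ENSMUSG00000023992, chr17:48346401-48354147) encodes a lipid-sensing receptor, Cd36 (ENSMUSG00000002944, chr5:17781690-17888801) a scavenger receptor and fatty acid transporter, Mrc1 (ENSMUSG00000026712, chr2:14229392-14332057) the mannose receptor CD206, and Gpnmb (ENSMUSG00000029816, chr6:49036546-49070929) a membrane glycoprotein of lysosome-rich cells. Fabp5 (ENSMUSG00000027533, chr3:10012548-10016607) encodes a fatty acid binding protein. Per kilobase of exon, the median level over all tumors was highest for Apoe (247 CPM per kb), Spp1 (137 CPM per kb) and Lgals3 (68.6 CPM per kb). It was 20.4 for Mrc1, 11.1 for Gpnmb, 10.5 for Cd36, 5.92 for Fabp5 and 5.12 for Trem2, where CPM is the count scaled by the library total after TMM normalization.

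The DNA just before a gene's start holds sites that many factors read, and it is shown for Spp1, for Cd36, which followed Spp1 across tumors, and for Trem2, which holds the only searched letters found before a start. RefSeq windows (GRCm38.p6) were at hand for 7 of the 8 genes, with 10 start sites among them. The stretches are 250 bases long, 5′ to 3′ on the gene's strand, with the match to TGANTCA, the AP-1 letters, in capitals. They are chr5:104434861-104435110 on the plus strand (Spp1), chr5:17835897-17836146 on the minus strand (Cd36) and chr17:48346151-48346400 on the plus strand (Trem2). None of the 3 overlaps an exon of its gene in GENCODE vM21. The Spp1 and Trem2 stretches lie upstream of the gene and the Cd36 stretch in an intron of longer transcripts.

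Spp1: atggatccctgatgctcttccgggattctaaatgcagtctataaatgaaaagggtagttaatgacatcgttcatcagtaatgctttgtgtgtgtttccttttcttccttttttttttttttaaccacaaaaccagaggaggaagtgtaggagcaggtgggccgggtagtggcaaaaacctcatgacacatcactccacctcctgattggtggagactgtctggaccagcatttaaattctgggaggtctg

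Cd36: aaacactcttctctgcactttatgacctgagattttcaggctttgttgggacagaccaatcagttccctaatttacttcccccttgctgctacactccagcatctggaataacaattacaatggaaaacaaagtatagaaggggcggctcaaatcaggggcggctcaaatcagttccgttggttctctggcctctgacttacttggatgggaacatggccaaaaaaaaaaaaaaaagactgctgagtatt

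Trem2: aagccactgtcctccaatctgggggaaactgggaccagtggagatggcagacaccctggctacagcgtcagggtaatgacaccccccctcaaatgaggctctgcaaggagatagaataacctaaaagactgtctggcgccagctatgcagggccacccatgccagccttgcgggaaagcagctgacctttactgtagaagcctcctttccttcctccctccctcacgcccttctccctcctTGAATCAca

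Over the whole windows of 250 bases before to 50 bases after a start, on both strands, TGANTCA was found in Trem2, with its first base 9 bases before the start, and in Gpnmb, just after the start. It is in 7.79% of the 32544 windows of the table. CACGTG, the E-box of MITF and TFE factors (7.17% of windows), TCATGTG (3.79%), the hypoxia core ACGTG (19.7%, which includes every CACGTG) and the nuclear receptor repeats DR1 and DR4, in which AGGTCA recurs after a gap of 1 base (0.0399%) or 4 bases (0.0154%), were in no window of these genes. A match describes letters only.

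The count totals ranged from 7155486 in aPD1 + aGMCSF + aIL2RB replicate 4 to 24101674, with the next lowest at 15109227. All 12 macrophage identity markers (such as Adgre1, Csf1r and C1qa) were counted in every tumor, with a summed level of 1728 to 5742 CPM. The sum was 2534 to 3013 CPM in isotype, 2958 to 5742 in aPD1, 2222 to 2666 in aPD1 + aGMCSF, 2110 to 2784 in aPD1 + aIL2RB and 1728 to 3766 in aPD1 + aGMCSF + aIL2RB tumors. Of the 5 markers of MC38 cells, Shisal2b was counted in every tumor (median 414.5 counts), while Krt19 was at 0 in 7 tumors, Krt8 and Krt18 in 10 each and Cldn4 in 23. Skeletal muscle markers ranged from 0.234 to 758 CPM in sum, with a median of 1.27 in isotype and 130 in aPD1 tumors, and 5 of 6 were higher with aPD1. An edgeR adjusted p under 0.05 over the 16932 genes tested was the threshold throughout.

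Spp1 passed the test in no pair of treatments and differed between the sets. In isotype replicates 1 to 5 it was at 153, 169, 326, 299 and 229 CPM. The lowest, median and highest levels were 147, 204 and 313 CPM in aPD1, 114, 223 and 326 in aPD1 + aGMCSF, 185, 252 and 424 in aPD1 + aIL2RB, and 154, 206 and 475 in aPD1 + aGMCSF + aIL2RB tumors. All groups overlapped in each of the 10 pairs. The nearest to the threshold was aPD1 + aIL2RB against aPD1, at 0.33 on the log2 scale (SE 0.22, edgeR adjusted p = 0.281) and, with the set as a term, at 0.38 (SE 0.13, edgeR adjusted p = 0.024). With treatment in the model, Spp1 and Apoe were the 2 of the 8 genes that differed between the sets, beside 25.1% of all genes. Spp1 was higher in the second set by 0.70 on the log2 scale (SE 0.079, edgeR adjusted p = 4.5e-08), with a higher mean in 5 of 5 groups and no overlap between the sets in 4 of them.

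**Figure D1:**
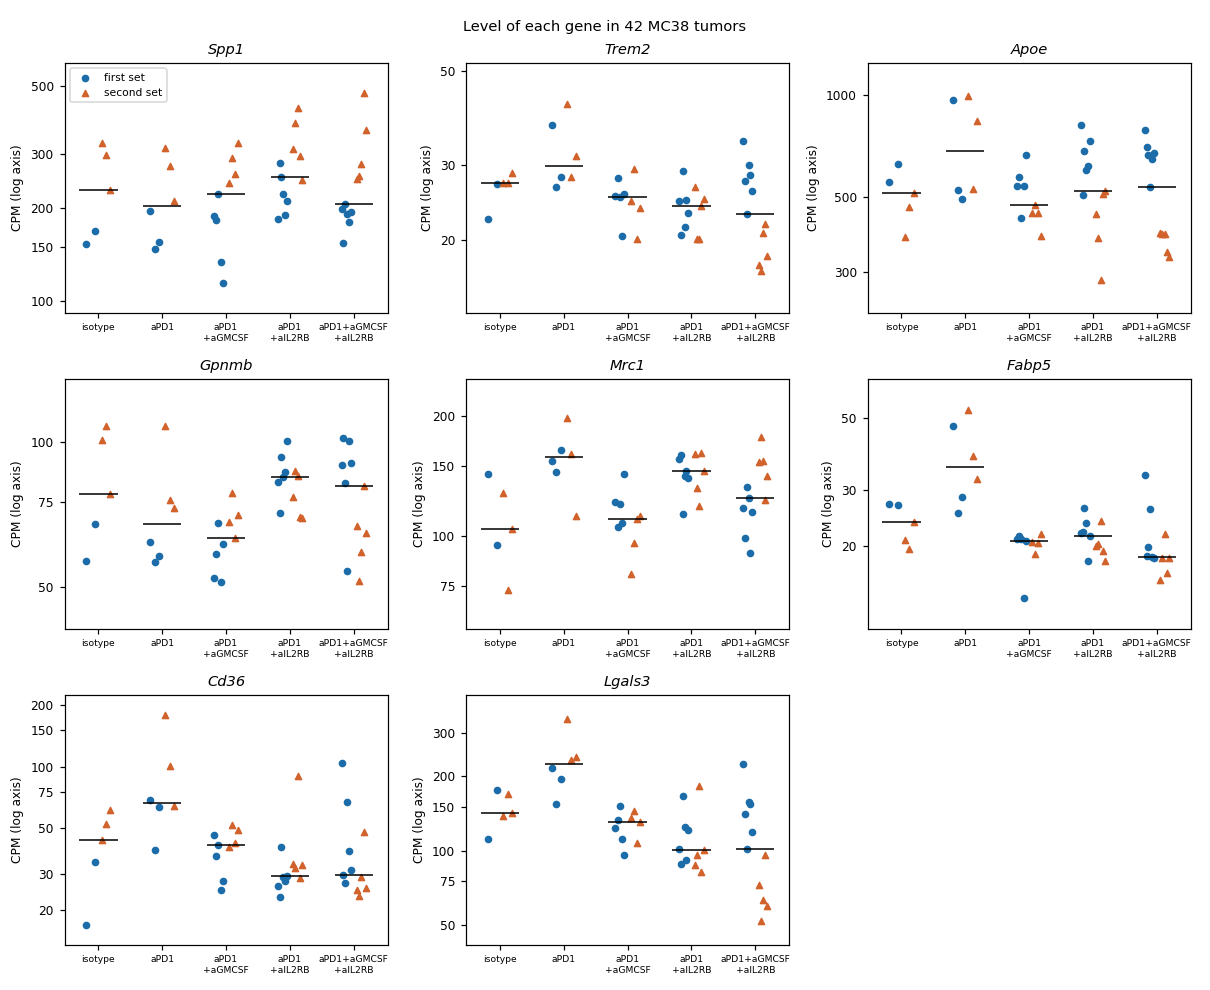
Level of each gene in each tumor, in CPM on a log axis, by treatment group; circles are tumors of the first set, triangles tumors of the second set and lines the median of each group. Spp1 triangles sit above the circles in most groups, and the aPD1 group is high for Fabp5, Cd36 and Lgals3.

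Cd36 and Lgals3 had their highest median in aPD1 tumors. Cd36 was at 16.995, 34.2, 44.0, 52.6 and 61.5 CPM in isotype replicates 1 to 5 and ranged from 39.4 to 178 CPM in aPD1 (median 66.5). The medians of Cd36 in the blocked groups were 41.7, 29.5 and 29.7 CPM, in the order aPD1 + aGMCSF, aPD1 + aIL2RB and aPD1 + aGMCSF + aIL2RB. The ranges of aPD1 and each blocked group overlapped for this receptor. Lgals3 was at 111, 176, 138, 170 and 142 CPM in isotype replicates 1 to 5 and at 154 to 340 CPM in aPD1 (median 224). Its medians in the blocked groups were 131, 100 and 101 CPM in the same order, and no aPD1 + aGMCSF tumor, at 95.7 to 152 CPM, reached the lowest aPD1 tumor.

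Fabp5 was at 27.003, 26.8, 20.965, 19.6 and 23.7 CPM in isotype replicates 1 to 5 and at 25.3 to 52.9 CPM in aPD1 (median 35.2). In aPD1 + aGMCSF it lay at 13.9 to 21.9 CPM, below every aPD1 tumor. It was at 17.9, 21.6 and 26.2 CPM (lowest, median, highest) in aPD1 + aIL2RB and at 15.8, 18.5 and 33.3 CPM in aPD1 + aGMCSF + aIL2RB tumors. The blocked groups thus sat near the isotype group and mostly below aPD1. Trem2 moved over a narrow range, from 16.9 to 41.7 CPM, and its group medians were 27.3 (isotype), 29.8 (aPD1), 25.3 (aPD1 + aGMCSF), 24.1 (aPD1 + aIL2RB) and 23.03 CPM (aPD1 + aGMCSF + aIL2RB).

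Mrc1, Apoe and Gpnmb overlapped between all groups. Mrc1 was at 143, 94.7, 128, 73.1 and 104 CPM in isotype replicates 1 to 5, and its medians were 158 in aPD1, 110 in aPD1 + aGMCSF, 145 in aPD1 + aIL2RB and 124 CPM in aPD1 + aGMCSF + aIL2RB tumors. Apoe was at 554, 629, 381, 466.2 and 513 CPM in isotype replicates 1 to 5, with medians of 684, 475, 520 and 537 CPM in the other groups in the same order. Gpnmb was at 56.5, 67.5, 101, 108 and 78.0 CPM in isotype replicates 1 to 5, and its later medians were 67.5, 63.2, 84.4 and 80.9 CPM. Its lowest median was that of aPD1 + aGMCSF and its highest that of aPD1 + aIL2RB tumors. A single aPD1 tumor, replicate 4, had the highest level of all 8 genes in its group and the highest macrophage marker sum of all tumors (5742 CPM).

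The comparison of aPD1 with isotype asks how the genes moved within 48 h of a single dose. Mrc1 and Fabp5 rose, and the other 6 did not pass. Mrc1 changed by 0.52 on the log2 scale (SE 0.15, edgeR adjusted p = 0.0221) and Fabp5 by 0.66 (SE 0.16, edgeR adjusted p = 0.007). These 2 of 8 compare with 8.71% of all genes called in either direction and 6.17% called higher. Cd36 had the largest estimate, 1.04 (SE 0.36, edgeR adjusted p = 0.0615). It passed by DESeq2 (adjusted p = 0.0489) and with the set as a term (edgeR adjusted p = 0.0421), and was at 0.69 without aPD1 replicate 4 (edgeR adjusted p = 0.262). Lgals3 was at 0.64, Apoe at 0.51, Trem2 at 0.28, Spp1 at -0.12 and Gpnmb at -0.19. The Mrc1 call was lost without isotype replicate 2 (edgeR adjusted p = 0.0665), isotype replicate 4 (0.107) or aPD1 replicate 4 (0.0851), and with only the isotype and aPD1 tumors in the fit (0.0665). In the first set, where 2 genes of the whole table passed, neither call held, with Mrc1 at 0.38 (edgeR adjusted p = 0.356) and Fabp5 at 0.32 (0.65, against 0.95 on the log2 scale in the second set). In the second set, where 2177 genes passed, Lgals3 (0.86, edgeR adjusted p = 0.0197), Apoe (0.81, 0.00745) and Cd36 (1.13, 0.0456) passed as well, and Lgals3 also with only the isotype and aPD1 tumors in the fit (0.0328). Macrophage identity markers moved with these values, since 10 of 12 rose with a median of 0.62. Skeletal muscle markers rose in 5 of 6 (median 4.24), fibroblast markers in 3 of 8, where 1 fell, endothelial markers in 2 of 7, and keratinocyte and neutrophil markers in 1 of 5 each. The part of these markers was not tested.

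GM-CSF blockade on top of aPD1 went with lower levels of 5 of the 8 genes than aPD1 by itself, and none higher. The share of all genes called was 13.5%, and 8.75% were lower. The log2 difference was -1.10 for Cd36 (SE 0.30, edgeR adjusted p = 0.0119), -0.90 for Fabp5 (SE 0.13, edgeR adjusted p = 4.72e-05) and -0.87 for Lgals3 (SE 0.22, edgeR adjusted p = 0.00591). Mrc1 was at -0.49 and Trem2 at -0.38 (edgeR adjusted p = 0.00724 and 0.0262). Spp1 was at 0.01 (SE 0.23), Gpnmb at -0.19 and Apoe at -0.53 (SE 0.20, edgeR adjusted p = 0.061). With the set as a term Apoe passed, at -0.61 (SE 0.16, edgeR adjusted p = 0.00594), while within the sets it was at -0.27 (0.528) in the first and -0.86 (0.00185) in the second. Without aPD1 replicate 4 the Cd36 difference was -0.74 (edgeR adjusted p = 0.123), and the Trem2 call was lost without aPD1 replicate 1 (edgeR adjusted p = 0.075), aPD1 replicate 4 (0.135) or aPD1 + aGMCSF replicate 8 (0.0543), and with library size only in place of TMM (0.0619). In the first set none of the 5 calls held (edgeR adjusted p = 0.0888 to 0.387), where 27 genes of the whole table passed, and Fabp5 was at -0.77 there. Macrophage identity markers fell in 10 of 12 (median -0.70) and neutrophil markers in 4 of 5 (median -1.82). Fibroblast markers fell in 2 of 8 and rose in 1, dendritic cell markers fell in 1 of 6 and rose in 1, and 1 of 7 T and NK and 1 of 5 keratinocyte markers fell. The part of these markers was not tested.

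IL2RB blockade on top of aPD1 went with lower levels of 4 of the 8. Of all genes 27.4% were called, and 14.5% were lower. The log2 difference was -1.26 for Cd36 (SE 0.29, edgeR adjusted p = 0.000806), -1.03 for Lgals3 (SE 0.21, edgeR adjusted p = 0.000197), -0.81 for Fabp5 (SE 0.13, edgeR adjusted p = 6.03e-06) and -0.45 for Trem2 (SE 0.11, edgeR adjusted p = 0.0025). Mrc1, which fell with GM-CSF blockade, was at -0.12 (SE 0.12), Apoe at -0.39 (edgeR adjusted p = 0.125) and Gpnmb at 0.19. With the set as a term Apoe passed, at -0.48 (SE 0.15, edgeR adjusted p = 0.0133), and so did Spp1, as given above. Apoe was at -0.0048 in the first set (edgeR adjusted p = 0.989) and at -0.90 in the second (0.000462). In the first set Gpnmb was higher, at 0.56 (SE 0.14, edgeR adjusted p = 0.00972), and Trem2 did not pass, at -0.36 (edgeR adjusted p = 0.0572). T and NK markers fell in 7 of 7 in this comparison, macrophage identity markers in 11 of 12 (median -0.85) and skeletal muscle markers in 5 of 6 (median -2.62), while 3 of 8 fibroblast markers rose and 4 fell. Endothelial markers rose in 2 of 7 and dendritic cell markers in 1 of 6, where 2 fell, 1 of 5 MC38 markers rose, and 1 neutrophil, 1 keratinocyte and 1 adipocyte marker fell. The part of these markers was not tested.

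With both blocking antibodies the same 4 genes were lower than with aPD1, beside 27.4% of all genes called and 14.3% called lower, and none of these 4 calls held in the first set. The log2 difference was -1.08 for Cd36 (SE 0.29, edgeR adjusted p = 0.00407), -1.03 for Lgals3 (SE 0.21, edgeR adjusted p = 0.000213), -0.87 for Fabp5 (SE 0.13, edgeR adjusted p = 2.9e-06) and -0.43 for Trem2 (SE 0.11, edgeR adjusted p = 0.00425). In the first set Cd36 was at -0.21 (edgeR adjusted p = 0.765), Lgals3 at -0.34 (0.364), Fabp5 at -0.59 (0.0684) and Trem2 at -0.12 (0.626), and in the second at -1.94, -1.99, -1.19 and -0.84, where all 4 passed. In all tumors Spp1 was at 0.21, Gpnmb at 0.09, Mrc1 at -0.26 (SE 0.12, edgeR adjusted p = 0.108) and Apoe at -0.44 (SE 0.19, edgeR adjusted p = 0.0736). Mrc1 passed in the first set, at -0.45 (edgeR adjusted p = 0.0356), without aPD1 replicate 6 (0.0403) and without replicate 8 of the group given both (0.0449). With the set as a term Apoe passed too, at -0.55 (SE 0.15, edgeR adjusted p = 0.00445), and it also passed without any 1 of 5 single tumors (aPD1 replicate 2, 3 or 5, or replicate 1 or 2 of the group given both, edgeR adjusted p = 0.0312 to 0.0481). Without aPD1 replicate 4, Cd36 was at -0.73 (edgeR adjusted p = 0.0654). The 3 comparisons of blocked groups share the aPD1 tumors, and macrophage identity markers fell in 11 of 12 here too (median -0.82), with T and NK markers in 7 of 7 (median -2.93), neutrophil and keratinocyte markers in 3 of 5 each and dendritic cell markers in 2 of 6, where 1 rose. Fibroblast markers rose in 4 of 8 and fell in 1, and endothelial markers rose in 3 of 7. A single adipocyte and a single skeletal muscle marker fell, and the part of these markers was not tested.

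**Figure D2:**
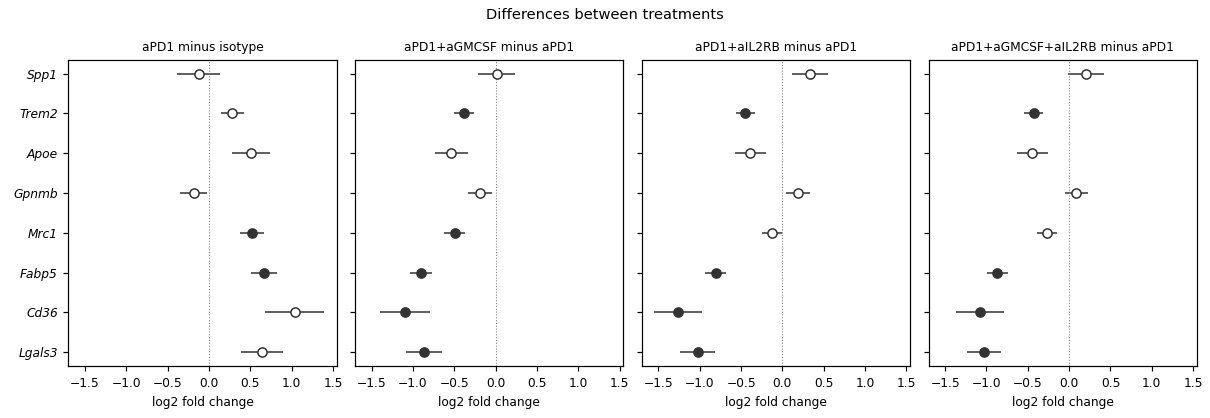
Log2 fold change of each gene in the 4 comparisons with aPD1, with bars of 1 SE from edgeR; filled points have an adjusted p under 0.05 over all genes. Cd36, Fabp5 and Lgals3 lie left of 0 in each comparison of a blocked group with aPD1, while Spp1 lies at 0.01, 0.33 and 0.21.

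Against isotype, no gene of the 8 passed with blockade in the fit of all tumors. In aPD1 + aGMCSF + aIL2RB 0 of 8 passed edgeR's test beside 10.2% of all genes, with 0 of 8 at an unadjusted p under 0.05 (4520 of all genes) and 0 by DESeq2 (2073). In the second set, however, where 1912 of all genes passed, Lgals3 was at -1.13 (edgeR adjusted p = 0.00143), Gpnmb at -0.57 (0.00875), Trem2 at -0.54 (0.00931) and Mrc1 at 0.56 (0.0408). None of the 8 passed in the first set, where 338 of all genes did, and Gpnmb was at 0.49 there (edgeR adjusted p = 0.106). In aPD1 + aGMCSF against isotype no gene of the table passed edgeR's test (0%; an unadjusted p under 0.05 was reached by 938, Gpnmb among them, and DESeq2 called 5, of which 0 were of the 8). In aPD1 + aIL2RB against isotype 0 of 8 passed edgeR's test beside 3.20% of all genes, with Mrc1 at an unadjusted p under 0.05 (3065 of all genes) and 0 by DESeq2 (756), and 1 of 8 passed without isotype replicate 1. Between the blocked groups, 0 of 8 passed edgeR's test in aPD1 + aIL2RB against aPD1 + aGMCSF (1.52% of all genes, with 2 of 8 and 2288 of all genes unadjusted, and 1 of 8 and 395 of all genes by DESeq2), and 0 of 8 in aPD1 + aGMCSF + aIL2RB against aPD1 + aGMCSF (2.13%, with 2 of 8 and 2933 of all genes unadjusted, and 0 of 8 and 578 of all genes by DESeq2) or against aPD1 + aIL2RB (0.00591%, with 0 of 8 and 1212 of all genes unadjusted, and 0 of 8 and 1 of all genes by DESeq2).

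Other genes of the same pathways were taken from lists. The lipid-associated macrophage list holds 6 of the 8 genes, and 23 others were tested. Of these 23, 8 rose and 1 fell with aPD1 against isotype (median 0.47), and 13 fell in each comparison of a blocked group with aPD1 (medians -0.59, -0.59 and -0.48). Of all genes 6.17% were higher with aPD1, and 8.75%, 14.5% and 14.3% were lower with blockade. The macrophage identity markers moved the same way, 10 of 12 higher with aPD1 and 10, 11 and 11 of 12 lower with blockade, and their part was not tested. Over all genes the medians of these comparisons were between -0.00229 and 0.0107. The cholesterol exporter Abcg1 went from a mean of 18.5 CPM in isotype to 58.9 CPM in aPD1 tumors (log2 difference 1.67, SE 0.31, edgeR adjusted p = 0.00105) and had means of 25.7, 18.5 and 24.8 CPM in the blocked groups. Nr1h3, which encodes the sterol-sensing factor LXRα that switches on such exporters, had means of 3.22 CPM in isotype and 8.15 CPM in aPD1, then 2.97, 2.58 and 3.16 CPM in the blocked groups. It passed in all 4 comparisons, at 1.33 (SE 0.38) with aPD1 and at -1.46, -1.66 and -1.39 with blockade. Lpl, which encodes lipoprotein lipase, was at -1.73 with aIL2RB (edgeR adjusted p = 1.72e-07), and the tetraspanin gene Cd63 moved the other way, lower with aPD1 and higher in both groups given aIL2RB, and was named after its values were seen.

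Of the receptors and proteases of osteopontin, 13 of 15 were tested. With aPD1, 4 rose and none fell, beside 6.17% of all genes higher, with the α4 integrin gene Itga4 at 1.04 (SE 0.25, edgeR adjusted p = 0.00674). With blockade 4, 6 and 3 fell and 2, 1 and 2 rose (medians -0.23, -0.24 and -0.15), in the order of the groups above, where 8.75%, 14.5% and 14.3% of all genes were lower and 807, 2198 and 2215 of 16932 were higher. Itga4 fell in all 3, at -0.78, -1.24 and -0.95, as did the macrophage elastase gene Mmp12, at -1.26, -1.58 and -1.78. The gelatinase gene Mmp9 rose by 0.83, 0.97 and 0.91, from a mean of 186 CPM in aPD1 to 331, 364 and 349 CPM. In the alternative activation list, 4 of 13 rose with aPD1, 8 of 13 fell with GM-CSF blockade, Mrc1 among them, and 4 of 13 in each group given aIL2RB, beside the same shares of all genes. The chemokine gene Ccl8 fell from a mean of 34.7 CPM in aPD1 to 10.3, 9.88 and 10.3 CPM. Of 12 hypoxia and glycolysis genes, 2, 2 and 1 rose and 0, 1 and 1 fell with blockade against aPD1 (medians 0.23, 0.09 and -0.09), beside 13.5%, 27.4% and 27.4% of all genes called, and 5 fell in aPD1 + aGMCSF + aIL2RB against isotype (median -0.31), where 763 of all 16932 genes fell.

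Which genes followed Spp1 was asked from tumor to tumor, after the mean of each treatment and set was removed from log2 CPM (10 groups of tumors, 42 tumors, 8 relations with Spp1 counting Cxcl9). Cd36 had a Pearson r of 0.52 (permutation p = 0.00028) and a Spearman rho of 0.51 (permutation p = 0.00106), and Lgals3 an r of 0.50 (permutation p = 0.00205) and a rho of 0.44 (permutation p = 0.00736). In the fit of every gene on Spp1, these were the 2 of the 7 other genes that passed, beside 1.68% of 16931 genes. Within treatment and set, the fitted slope per log2 unit of Spp1 was 1.06 for Cd36 (SE 0.26, edgeR adjusted p = 0.0281) and 0.64 for Lgals3 (SE 0.17, edgeR adjusted p = 0.0405).

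The other 5 genes did not pass in the fit of every gene on Spp1. Fabp5 had r = 0.39 (permutation p = 0.0166, edgeR adjusted p over all genes 0.21) and Gpnmb r = 0.36 (permutation p = 0.0282, edgeR adjusted p 0.216). Apoe ran the other way, with r = -0.38 (permutation p = 0.0252, edgeR adjusted p 0.27) and rho = -0.41. Trem2 had r = 0.16 (permutation p = 0.339, edgeR adjusted p 0.678) and Mrc1 r = -0.08 (permutation p = 0.628, edgeR adjusted p 0.879). Cxcl9, added for comparison, had r = 0.27 (permutation p = 0.137, edgeR adjusted p 0.294). Without the 2 tumors farthest from the median of Spp1, aPD1 + aGMCSF + aIL2RB replicate 10 and aPD1 + aGMCSF replicate 5, r was 0.55 for Fabp5, 0.46 for Cd36, 0.38 for Lgals3, 0.33 for Gpnmb and -0.34 for Apoe. Of the 7 genes, r moved most for Mrc1 (to 0.12), Fabp5 and Lgals3. The permutation p without them was 0.00532 for Cd36, 0.0306 for Lgals3, 0.051 for Gpnmb and 0.0875 for Apoe. Within single groups of at least 6 tumors, Cd36 had an r of 0.89 in aPD1, 0.87 in aPD1 + aGMCSF, 0.51 in aPD1 + aIL2RB and 0.45 in aPD1 + aGMCSF + aIL2RB (permutation p = 0.0829, 0.0197, 0.192 and 0.0838). In the same order, Fabp5 had 0.93, 0.42, 0.72 and 0.06 (permutation p = 0.0272, 0.452, 0.0152 and 0.794) and Apoe 0.49, -0.77, -0.83 and -0.41 (permutation p = 0.392, 0.0305, 0.00445 and 0.133), so that Apoe was positive in aPD1 and negative in the blocked groups.

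**Figure D3:**
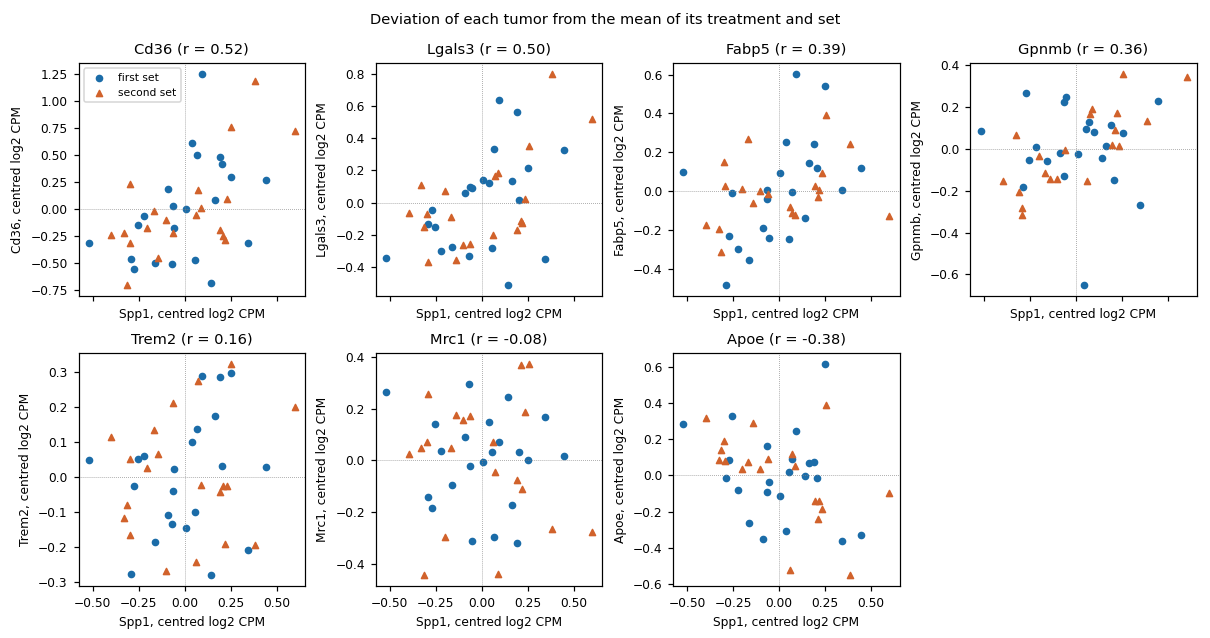
Deviation of each tumor from the mean of its treatment and set in log2 CPM, Spp1 on the x axis and each other gene on the y axis; circles are the first set and triangles the second set. Cd36 and Lgals3 rise with Spp1 and Apoe falls, while Trem2 is at r = 0.16 and Mrc1 at r = -0.08.

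The relations were also taken within each set. Cd36 had r = 0.41 in the first set (22 tumors, permutation p = 0.0301) and 0.65 in the second (20 tumors, permutation p = 0.00694), and Lgals3 had 0.40 and 0.59 (permutation p = 0.0532 and 0.0224). Gpnmb had r = -0.05 in the first set and 0.78 in the second (permutation p = 0.803 and 0.00073), and Apoe -0.20 and -0.54 (permutation p = 0.413 and 0.0213). Whether r differed between the sets was not tested. In the fit over all genes within the first set no gene of 17399 passed edgeR's test, and 1082 of them, with 3 of the 7 among them, had an unadjusted p under 0.05. Within the second set Gpnmb and Cd36 passed (edgeR adjusted p = 0.013 and 0.0428), beside 1.44% of all genes.

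Removing the set means changed the relation for Lgals3, Fabp5, Trem2 and Cxcl9. With only the treatment means removed, r was -0.02 for Lgals3 (permutation p = 0.894) and 0.05 for Fabp5 (permutation p = 0.749). Trem2 and Cxcl9 turned in sign, to -0.17 (permutation p = 0.315) and -0.18 (permutation p = 0.283). Cd36 kept 0.46 (permutation p = 0.00329) and Apoe had -0.63 (permutation p = 5e-05). In that fit 23.8% of all genes passed, Apoe and Cd36 among them. With no means removed, Cd36 was at r = 0.25 (permutation p = 0.109) and did not pass in the fit on Spp1 (edgeR adjusted p = 0.175). Apoe passed there, beside 13.5% of all genes. Spp1 was higher in the second set in every group, and the second set had a lower mean of Apoe in 4 of 5. Apoe was lower in the second set, at -0.47 on the log2 scale (SE 0.094, edgeR adjusted p = 0.000324), and the other 6 genes did not pass.

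**Figure D4:**
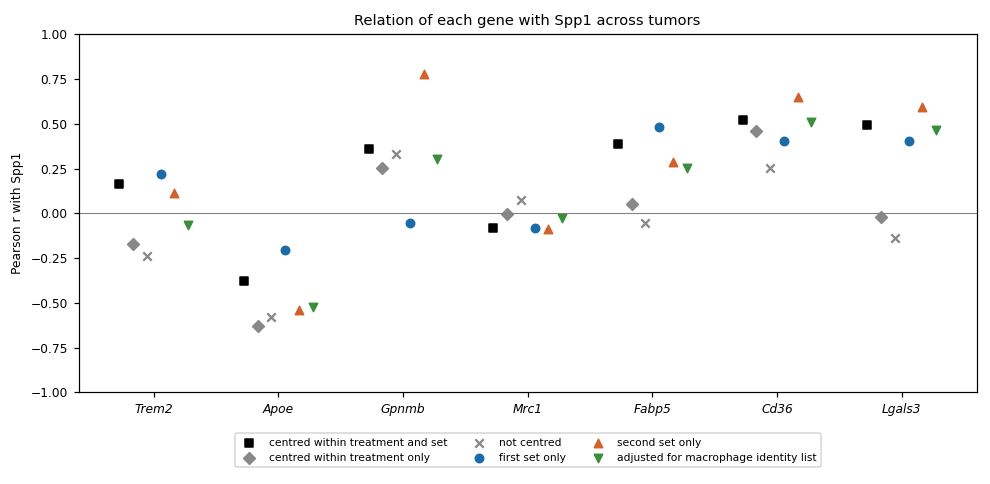
Pearson r of each gene with Spp1 (y axis) under 6 ways of treating the tumors, marked by symbol. Lgals3 lies at 0.50 when centred within treatment and set and at -0.02 when the set is left in, and Gpnmb differs most between the sets.

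Macrophage markers moved with some of these genes. Across the 42 tumors, centred in the same way, the mean log2 CPM of the 12 macrophage identity genes had an r of 0.85 with Lgals3, 0.84 with Cd36, 0.67 with Trem2 and 0.65 with Fabp5, but 0.31 with Spp1 and with Apoe, 0.28 with Gpnmb and -0.20 with Mrc1. The points share their libraries, so these values are descriptions. With Spp1 and each gene adjusted for that mean, r with Spp1 was 0.51 for Cd36 (permutation p = 0.00161), 0.46 for Lgals3 (permutation p = 0.00877), 0.25 for Fabp5 (permutation p = 0.199) and -0.52 for Apoe (permutation p = 0.00082). Among other marker lists, Spp1 had an r of 0.41 with MC38 tumor cell genes, 0.36 with dendritic cell genes, -0.33 with endothelial genes and 0.00 with T and NK genes. Lgals3 had an r of 0.69 with T and NK, 0.51 with MC38, 0.49 with adipocyte and 0.40 with dendritic cell genes. Cd36 had 0.55 with neutrophil, 0.54 with T and NK, 0.498 with fibroblast, 0.45 with adipocyte and 0.41 with MC38 genes. The MC38 mean includes Krt8, Krt18, Krt19 and Cldn4, with medians of 7, 7, 12 and 0 counts beside 414.5 for Shisal2b. The neutrophil and adipocyte means also include sparse genes, such as S100a8 (median 4 counts) and Lep (median 3 counts). These r values thus rest in part on genes near the floor and do not measure cell content.

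The genes also ran together apart from Spp1. Cd36 and Lgals3 had an r of 0.86, Cd36 and Fabp5 0.68 and Lgals3 and Fabp5 0.49. Apoe ran with Trem2 (0.56) and had -0.06 with Cd36. Mrc1 had its lowest value with Lgals3 (-0.45). Trem2 had 0.52 with Cd36, 0.53 with Fabp5 and 0.50 with Lgals3, and Gpnmb 0.22, 0.02 and 0.46. Apoe and Mrc1 had 0.24 and 0.25 with Fabp5, and both were negative with Cd36, Lgals3 and Spp1.

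Among 11283 genes with a mean log2 CPM of at least 2, the 10 with the highest r with Spp1 over the 42 tumors were Fosl1 (0.75), Gm26809 (0.72), Abcc1 (0.72), Car6 (0.71), Rbpj (0.71), Iffo2 (0.69), Slc39a14 (0.69), Myc (0.69), Il1rl1 (0.69) and Epha2 (0.69). Fosl1 encodes the AP-1 subunit FRA-1, Rbpj the DNA-binding factor of the Notch pathway, Abcc1 a drug and leukotriene exporter, Slc39a14 a zinc and iron importer and Il1rl1 the IL-33 receptor. The slopes on Spp1 were 0.53 for Fosl1 (SE 0.080, edgeR adjusted p = 0.000669), 1.34 for Car6 (SE 0.19, edgeR adjusted p = 0.000532) and 1.17 for Il1rl1 (SE 0.20, edgeR adjusted p = 0.00265). The 5 lowest were St3gal1 (-0.70), Islr (-0.69), 2310015A10Rik (-0.67), Plekha1 (-0.66) and Cyp2d22 (-0.65). By the same measure Cd36 was at rank 239 of 16931 genes of any level and Lgals3 at rank 335.

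Of the fixed lists, 5 of 29 lipid-associated genes rose with Spp1 and none fell (median slope 0.21, beside -0.0015 over all genes, of which 195 rose and 90 fell). Beside Cd36 and Lgals3 these were Plin2, which encodes a lipid droplet coat protein (slope 0.57, SE 0.12, edgeR adjusted p = 0.00813), the scavenger receptor gene Msr1 (0.43, SE 0.11, edgeR adjusted p = 0.029) and the protease gene Ctsl (0.24, SE 0.059, edgeR adjusted p = 0.0256). Mmp12 (1.30, SE 0.26, edgeR adjusted p = 0.00813), Plau (0.46), Itgam (0.54) and Ndrg1 (0.34) also passed, and these genes were named after their slopes were seen. 

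The difference between aPD1 + aGMCSF + aIL2RB and aPD1 tumors varied from set to set for most of the genes. Since the sets had been seen in these same expression values, the interaction p-values are not independent of how they were drawn. The aPD1 group held 3 tumors in each set. Its replicate 4, the highest of its group for all 8 genes, was in the second set, and the interaction was not refitted without it. The difference between the sets of aPD1 + aGMCSF + aIL2RB minus aPD1 passed the edgeR interaction test for 5 of the 8 genes, beside 9.18% of all genes. The summed macrophage identity markers in the group given both also differed without overlap, at 2298 to 3766 CPM in the first set and 1728 to 2140 CPM in the second, and their part was not tested. In the first set Lgals3 was at 101 to 224.5 CPM with both blocking antibodies, with replicate 1 the highest, and in the second set at 52.0 to 96.2 CPM, with no overlap. Against aPD1 its log2 difference was -0.34 (SE 0.21, edgeR adjusted p = 0.364) in the first set and -1.99 (SE 0.21, edgeR adjusted p = 2.2e-07) in the second, and the interaction was -1.64 (SE 0.32, edgeR adjusted p = 0.00197). Fabp5 was at -0.59 (SE 0.19, edgeR adjusted p = 0.0684) and -1.19 (SE 0.13, edgeR adjusted p = 3.3e-07), and its interaction did not pass (edgeR adjusted p = 0.131).

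Cd36 had an interaction of -1.71 (SE 0.51, edgeR adjusted p = 0.0274) and Trem2 of -0.70 (SE 0.19, edgeR adjusted p = 0.015). Gpnmb differed in direction, at 0.57 (SE 0.14, edgeR adjusted p = 0.0225) in the first set and -0.43 (SE 0.14, edgeR adjusted p = 0.022) in the second, and Apoe was at 0.02 in the first set and -1.11 in the second. Spp1 was at 0.18 and 0.27, with an interaction of 0.11 (SE 0.27, edgeR adjusted p = 0.863). The interaction against isotype passed for Gpnmb (-1.06, SE 0.22, edgeR adjusted p = 0.0216), beside 1.10% of all genes. Against aPD1 + aGMCSF it passed for Lgals3 (-1.19, SE 0.29, edgeR adjusted p = 0.0375), beside 0.821%, and so it did against aPD1 + aIL2RB (-1.05, SE 0.27, edgeR adjusted p = 0.035), beside 1.94%.

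**Figure D5:**
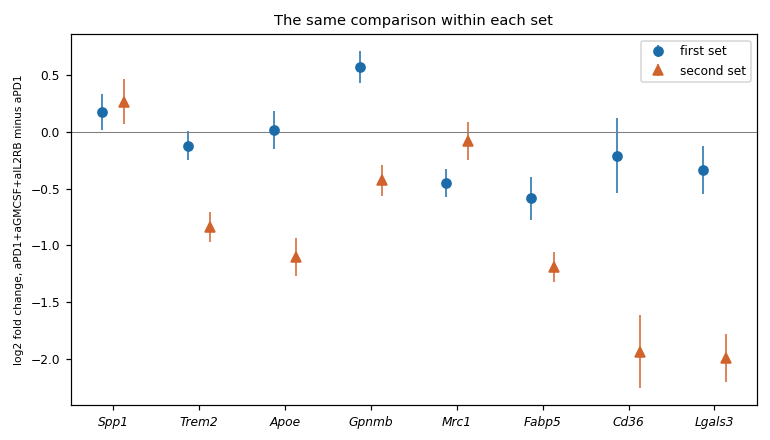
Log2 fold change of each gene between aPD1 + aGMCSF + aIL2RB and aPD1 tumors, fitted within the first set (circles) and within the second set (triangles), with bars of 1 SE. Apoe, Cd36 and Lgals3 are lower in the second set, while Spp1 is at 0.18 and 0.27.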

How the data were processed

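Bulk poly(A) RNA-seq was analysed from 42 MC38 tumors in 5 treatment groups, which were taken from the labels. The deposited table holds expected counts per gene, which the authors made by aligning reads with Bowtie 1.2.3 to transcriptomes of the founder strains and assigning reads shared between alleles by an expectation step. 15.2% of the values were not whole, so genes that share reads with a close copy are less certain. Of the 8 genes, Spp1 was not whole in 21 tumors and Fabp5 in 2. Every column was mapped to a tumor by its title (0 were not).

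Expected counts were rounded and fitted with edgeR 4.0.16 (R 4.3.3; TMM normalization, filterByExpr with a minimum count of 10 and a total of 15, 16932 genes, quasi-likelihood test, all 42 tumors). The p-values were adjusted by Benjamini-Hochberg over all genes in each pair of groups. Levels are CPM after TMM. Symbols and coordinates came from GENCODE vM21 (GRCm38). The labels list the tumors as separate samples and say nothing further of how mice were paired or batched, so p-values measure the spread between these tumors only. Totals of 7155486 to 24101674 counts set the precision, and counting error is covered by the count model.

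For the relation with Spp1, log2 CPM (prior count 2) was centred within the 10 combinations of treatment and set, and Spp1 was permuted 100000 times within them, two-sided. The slope of each gene on centred Spp1 was fitted with edgeR with these combinations as terms. Named genes were the 8 members, at most 4 of each list with the largest change past the threshold in a pair of groups, the 10 highest and 5 lowest genes by r with Spp1 where mean log2 CPM reached 2, and Cxcl9. The members and lists were chosen with earlier results of these data known, and a further item is not reported here.

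Alternatives were RLE size factors, library size only, other filters, only the groups compared, DESeq2 1.42.0, a replicate block, the set as a term, each set by itself, leaving out the rRNA genes from the totals and leaving out each tumor. The scripts were tested on simulated data for 16932 genes. In aPD1 against isotype, edgeR recovered 70 of 100 genes changed by 1 on the log2 scale and 89 of 100 changed by 2, and called 7 unchanged genes. Slopes of 0.5 on Spp1 were recovered for 41 of 100 genes and slopes of 1 for 67 of 100.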

Additional observations from a re-analysis of the deposited data

Results flagged for a closer look

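Single tumors stood apart in 3 of the 24 combinations of gene and group of 5 to 10 tumors that were tested, where chance gives about 1 in 20. Trem2 in isotype replicate 1 was at 22.4 CPM, below the next tumor at 27.1 CPM. Gpnmb in aPD1 replicate 4 was at 108 CPM, above the next at 75.7 CPM, and Fabp5 in aPD1 + aGMCSF replicate 4 was at 13.9 CPM, below the next at 18.9 CPM.

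The other results were differences between the sets in the effect of adding both blocking antibodies, each tested by an interaction term in edgeR. Against aPD1, the second set minus the first was -0.70 for Trem2, -1.11 for Apoe, -0.98 for Gpnmb, -1.71 for Cd36 and -1.64 for Lgals3, with edgeR adjusted p from 0.00197 to 0.0274. Against isotype it was -1.06 for Gpnmb (edgeR adjusted p = 0.0216). For Lgals3 it was -1.19 against aPD1 + aGMCSF and -1.05 against aPD1 + aIL2RB (edgeR adjusted p = 0.0375 and 0.035). The sets had been seen in these same expression values, so these p-values are not independent of how they were drawn. The labels do not name the sets, so what sets them apart was not tested.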

How the results depend on the processing

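Of 352 alternative values for 32 fold changes of the 8 genes, 309 kept direction and side of the threshold, 15 lost the call, 19 gained it and 9 turned direction. These cover aPD1 against isotype and each blocked group against aPD1, without the fits that left out a single tumor. Those fits changed further calls. Spp1 in aPD1 against isotype was 0.043 in the first set. Spp1 in aPD1 + aGMCSF against aPD1 was -0.0004 with RLE size factors, -0.0165 with at least 10 counts in every tumor and -0.0005 by DESeq2. Gpnmb was -0.16 in aPD1 + aIL2RB and -0.43 in aPD1 + aGMCSF + aIL2RB against aPD1 in the second set, and Apoe was 0.0159 in the last comparison in the first set. The cause was not tested.

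With the replicate block, Spp1 was -0.24 in aPD1 + aGMCSF and -0.17 in aPD1 + aGMCSF + aIL2RB against aPD1, and the Trem2 call with aGMCSF was lost (edgeR adjusted p = 0.101). Over 67 pairs of tumors with the same number, the correlation of deviations had a median of 0.025 (-0.162 to 0.207), and 17 were over 0.1. Among tumors with other numbers the median was -0.00695, at 0.0754 within a set and -0.0699 across the sets. Only treatment means were removed from these deviations, which kept the set, so they cannot show whether the numbers pair the tumors.

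Counts of the 8 genes past the threshold changed with the set. In aPD1 against isotype 0 passed in the first set and 5 in the second, where 2 and 2177 of all genes passed. In aPD1 + aGMCSF against aPD1 0 passed in the first set (27 of all genes, and 2736 in the second), and in aPD1 + aGMCSF + aIL2RB against aPD1 2 in the first (934, and 4949 in the second). In aPD1 + aGMCSF + aIL2RB against isotype 4 passed in the second set (1912 of all genes, and 338 in the first). In aPD1 + aIL2RB against aPD1 + aGMCSF 1 passed in the first set (301 of all genes) and 1 by DESeq2 (395). With only the groups compared 2 passed, and the count over all genes in that fit is not given here. In aPD1 + aGMCSF + aIL2RB against aPD1 + aGMCSF 1 passed in the first set (46 of all genes) and 2 in the second (1285). The cause was not tested.

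Centred within treatment only, r with Spp1 was -0.17 for Trem2, 0.25 for Gpnmb, 0.054 for Fabp5, -0.0228 for Lgals3 and -0.18 for Cxcl9. Not centred, it was -0.24 for Trem2, 0.0745 for Mrc1, -0.0511 for Fabp5, 0.25 for Cd36, -0.14 for Lgals3 and -0.26 for Cxcl9. There 1 gene, Apoe, passed edgeR's slope test, beside 13.5% of all genes. In the first set r was -0.20 for Apoe, -0.0515 for Gpnmb, 0.40 for Lgals3 and -0.0342 for Cxcl9, and 0 passed edgeR's slope test (3 unadjusted). Within the second set Fabp5 was at 0.29. Without the 2 farthest tumors r was -0.34 for Apoe, 0.33 for Gpnmb and 0.12 for Mrc1. Adjusted for macrophage identity genes it was -0.0628 for Trem2, 0.30 for Gpnmb and 0.25 for Fabp5.

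Leaving out each tumor, Spp1 ranged from -0.26 to 0.0239 in aPD1 against isotype and from -0.0808 to 0.15 in aPD1 + aGMCSF against aPD1. The count of the 8 genes past the threshold ranged from 1 to 3 in aPD1 against isotype and from 3 to 6 in aPD1 + aGMCSF against aPD1 (3 without aPD1 replicate 4). It ranged from 0 to 1 in aPD1 + aIL2RB against isotype and against aPD1 + aGMCSF. In the fit of all tumors 8.71%, 13.5%, 3.20% and 1.52% of all genes passed in these comparisons. The shares in the fits without a tumor are not given here, so whether the whole table moved as well was not examined. The r with Spp1 ranged from -0.55 to -0.31 for Apoe, from 0.27 to 0.46 for Gpnmb and from -0.20 to 0.0149 for Mrc1. The lowest depth, 7155486 counts, left each of the 8 genes with at least 198 counts in every tumor.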
